A study of Mus musculus with 96 samples.

Results

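Neighbouring thin segments of the mouse loop of Henle were compared: DTL3, the part of the long-looped descending thin limb that lies in the inner medulla, and ATL, the thin ascending limb into which it turns. The members were chosen by segment label alone, 8 of the 93 columns of tubules and glomeruli in the table, from 7 of 53 mice. Of those columns 1, of a proximal tubule, matched its segment but no single sample, and it enters only levels along the nephron and fits over all 15 groups. DTL3 was represented by 3 mice (mouse 1, mouse 2 and mouse 3, the last with 2 pieces that were averaged) and ATL by 4 mice (2, 3, 4 and 6) with 1 piece each. Both groups are microdissected tubules of untreated male C57BL/6 mice aged 6 to 8 weeks, kept pathogen-free with water and normal chow at will. The series gives every combination of mouse number and segment its own animal, so mouse 2 of DTL3 and mouse 2 of ATL are different mice. Poly(A) RNA was amplified from each piece with an ultra-low-input kit, and expression is given as TPM, a measure that divides by transcript length and by the library total. A dissected piece is a bulk sample, in which fewer cells of a type and less RNA per cell cannot be told apart.

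The loop of Henle concentrates urine by sending water and salt through different limbs. The descending thin limb is known for its water permeability through the channel aquaporin-1, whereas the ascending thin limb is impermeable to water and lets salt pass, with chloride channels that carry the subunit barttin (Bsnd). Both limbs are flat epithelia with few mitochondria, and they lie side by side in the papilla among vasa recta capillaries and collecting ducts.

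The 4 ATL libraries were not alike in low-level transcripts, so each gene was required to separate the mice completely. ATL mice 2 and 3 held 13949 and 13532 genes at 1 TPM or more, against 23465 and 24647 in ATL mice 4 and 6 and 22250 to 23247 in DTL3. Odorant and vomeronasal receptor genes, which kidney tubules are not known for, numbered 23 and 15 at that level in ATL mice 2 and 3, 517 and 588 in ATL mice 4 and 6, and 405 to 417 in DTL3, of 1461 in the table. Malat1, a nuclear noncoding RNA, took 8.36%, 7.43%, 20.4% and 11.2% of all TPM in ATL mice 2, 3, 4 and 6 and 2.43% to 4.27% in DTL3. Pearson correlations of log2(TPM + 1) over the tested genes were 0.926 to 0.96 among DTL3 mice, 0.796 to 0.961 among ATL mice and 0.76 to 0.889 between the segments. ATL mice 2 and 3 therefore sat below all other mice in genes detected, and ATL mouse 4 stood highest in Malat1.

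**Figure D1:**
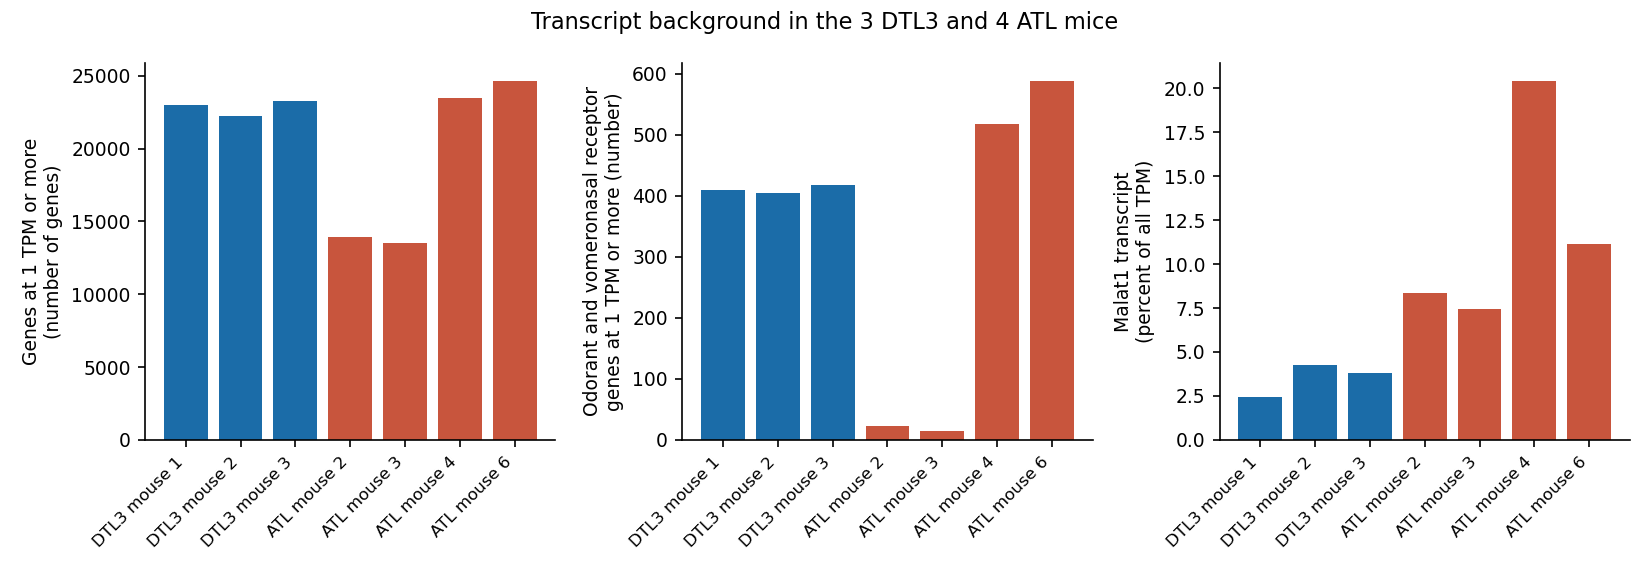
Bars give, for each of the 3 DTL3 (blue) and 4 ATL (red) mice, the number of genes at 1 TPM or more, the number of odorant and vomeronasal receptor genes at that level, and the share of all TPM taken by Malat1. ATL mice 2 and 3 have 23 and 15 receptor genes, against 405 or more in each other mouse.

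Of 22871 genes with at least 1 TPM in at least 3 of the 7 mice, 1594 (6.97%) were called different. A gene was called when limma's adjusted p was under 0.05, the difference in mean log2(TPM + 1) was at least 1, and every ATL mouse lay on the same side of every DTL3 mouse. Of these, 1145 (5.01% of the genes tested) were higher in DTL3 and 449 (1.96%) were higher in ATL. Without the separation rule the counts were 1153 and 453, so that rule removed few calls. All differences below are DTL3 minus ATL, so a negative value means higher in ATL. The split depends on scaling: DTL3 took 71.8% of the calls on TPM as deposited, 57% after median ratio rescaling (805 against 607) and 59.3% after quantile normalization (870 against 597). The median difference over all tested genes was 0.33 on TPM as deposited, 0.14 after the first rescaling and 0.09 after the second. Complete separation alone held for 3541 of the 22871 tested genes with DTL3 above ATL and for 1082 with ATL above DTL3. With 3 against 4 mice some genes separate by chance, so separation alone was not taken as a difference. Differences of at least 4 log2 units were found for 135 genes higher in DTL3 and 68 higher in ATL. With only 3 DTL3 mice, the number of genes higher in DTL3 was 552, 693 and 581 without DTL3 mouse 1, 2 or 3, so calls near the threshold that ended without a mouse are named beside their values. The share called higher in DTL3 was near that of all genes in several lists. These were osmolyte genes (5.88%), the insulin-like growth factor axis (6.67%), the Notch pathway (5.88%), the BMP and activin pathway (3.85%) and oxidative metabolism (6.06%). Among protein-coding genes 994 of 14616 were higher in DTL3, and 1099 of 12325 genes at a minimum of 5 TPM in 3 mice. Beside those shares, nuclear receptors (10%), S100 proteins (10%), keratins and vimentin (12.5%), acid-base genes (13.3%) and Hox genes (13.3%) also stood near background. The DTL3 counts of all these lists are no result about the lists.

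**Figure D2:**
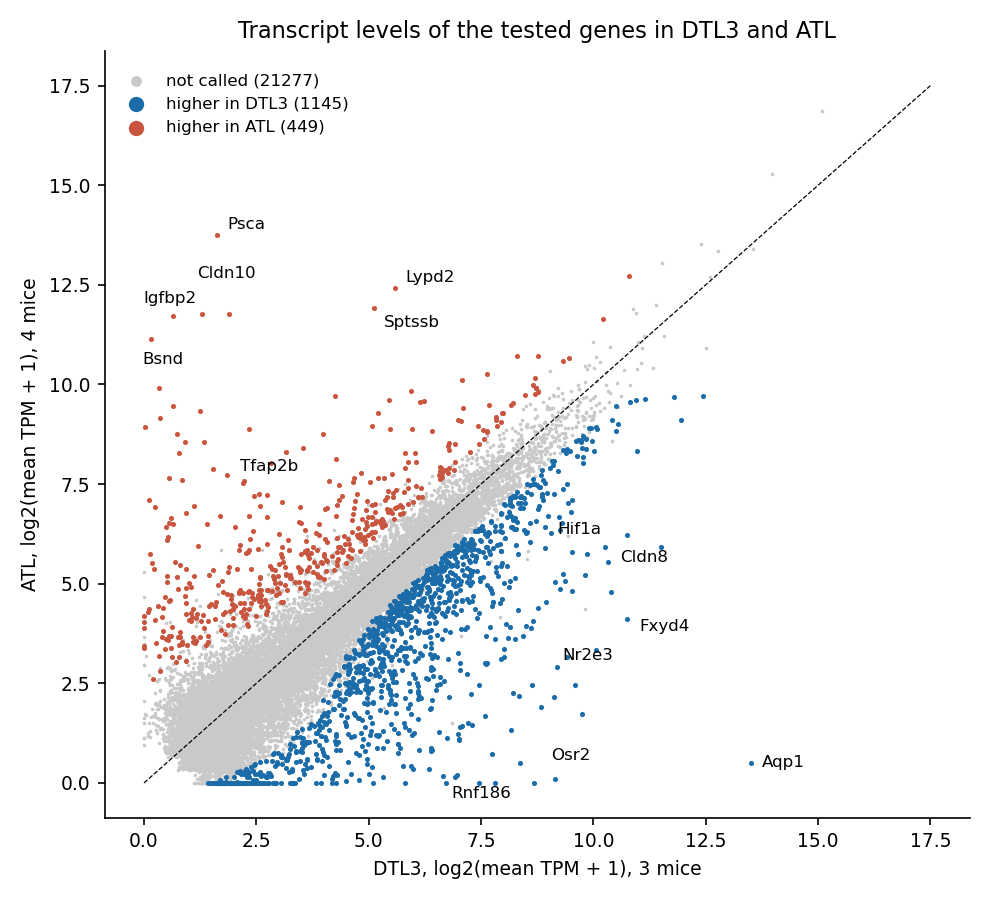
Each point is 1 of the 22871 tested genes, placed by the log2 of its mean TPM + 1 over 3 DTL3 mice (x axis) and over 4 ATL mice (y axis); the dashed line marks equal levels. Blue points are the 1145 genes called higher in DTL3 and red points the 449 called higher in ATL, with Aqp1 and Psca at the far ends.

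The 2 segments carried opposite markers, each in the segment whose label it belongs to. Aqp1, the water channel of the descending limb, was at 12081, 11152 and 11708 TPM in DTL3 and 0.19, 0.02, 0.42 and 1.08 TPM in ATL (difference 13.05, SE 0.25, adjusted p = 7.16e-11). Psca, a small membrane-anchored protein of the Ly6 family, was at 1.2, 3.85 and 1.24 TPM in DTL3 and 16933, 12848, 9765 and 15484 TPM in ATL (difference -12.19, SE 0.31, adjusted p = 7.65e-10). The groups were far apart for both genes: the highest ATL mouse had 1.08 TPM of Aqp1 and the highest DTL3 mouse 3.85 TPM of Psca. Of 6 tested water channels, Aqp1 was the one called (1 higher in DTL3; by limma 0 higher in ATL, also 0 at an unadjusted p under 0.05; median difference 0.49 against 0.33 over all genes). Aqp2, the vasopressin-regulated channel of the collecting duct, overlapped between the segments at 5.61, 18.7 and 13.8 TPM in DTL3 and 1.46, 2.26, 25.1 and 10.6 TPM in ATL (difference 0.81, SE 0.79, adjusted p = 0.695).

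A chloride channel subunit was among the largest differences towards ATL. Bsnd, the barttin subunit that brings chloride channels to the membrane, was at 0, 0 and 0.35 TPM in DTL3 and 2779.7, 3024, 1011 and 2149 TPM in ATL (difference -10.88, SE 0.34, adjusted p = 3.73e-09). The lowest ATL mouse was far above the highest DTL3 mouse, and ATL had the highest mean of all 15 groups, with the cortical thick limb next (485 TPM). Of 15 tested chloride channel genes, 2 were called higher in ATL, Bsnd among them, and by limma 0 higher in DTL3, with 2 at an unadjusted p under 0.05 (median difference 0.24). The single tested urea transporter, Slc14a2, was at 28.4, 3.61 and 8.32 TPM in DTL3 and 0, 0, 0.55 and 1.4 TPM in ATL (difference 2.89, SE 0.75, adjusted p = 0.0347). Slc14a2 lost its call without DTL3 mouse 1 or 3 or ATL mouse 2 or 3 (adjusted p up to 0.178). It was also lost in 5 other alternatives: a pseudocount of 0.1 or 5, no filter on TPM, median ratio rescaling, and ATL mice 4 and 6 alone. The level of Slc14a2 in DTL3 was small beside 7555 TPM in DTL1, the short-looped descending limb, and 2182 TPM in the inner medullary collecting duct.

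**Figure D3:**
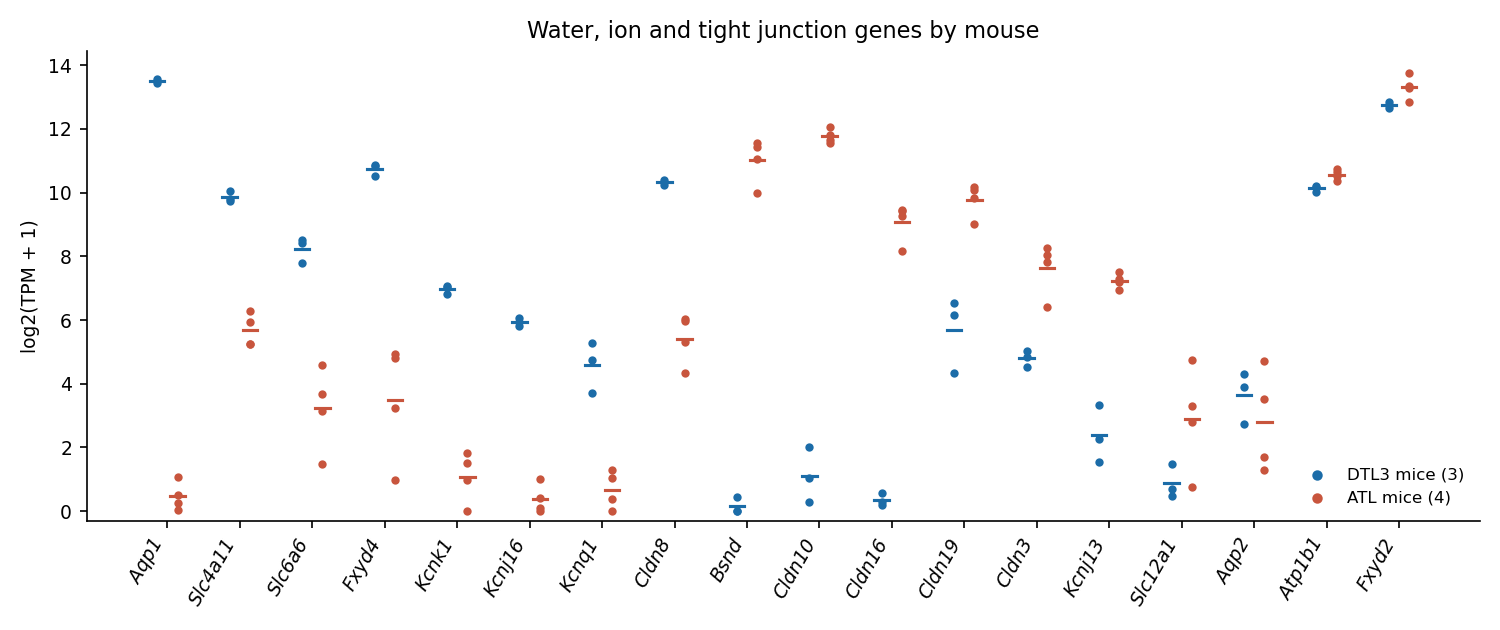
Points are single mice (blue, 3 DTL3; red, 4 ATL) and short lines their means, as log2(TPM + 1), for water, ion and tight junction genes. Aqp1, Slc4a11, Fxyd4, Kcnk1 and Cldn8 lie higher in DTL3, and Bsnd, Cldn10, Cldn16 and Kcnj13 higher in ATL, with no overlap, whereas Aqp2 and Atp1b1 were not called.

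The start regions of genes at both ends of the comparison are shown because members of 2 transcription factor families were themselves among the calls, Tfap2b (AP-2 beta) in ATL and Nr2e3 in DTL3. Each window runs from 250 bases before to 50 bases after an annotated start and is given 5′ to 3′ on the gene's strand, from RefSeq on GRCm38.p6. Capitals mark a match to the AP-2 motif GCCNNNGGC, searched on both strands. Ranks given with the windows are by the difference in mean log2(TPM + 1). Over the alternatives the difference of Igfbp2 ran from -12.52 to -9.09 and that of Bsnd from -13.69 to -8.66, so their order is not fixed.
Aqp1, the gene with the largest difference towards DTL3, chr6:55336049-55336348, plus strand: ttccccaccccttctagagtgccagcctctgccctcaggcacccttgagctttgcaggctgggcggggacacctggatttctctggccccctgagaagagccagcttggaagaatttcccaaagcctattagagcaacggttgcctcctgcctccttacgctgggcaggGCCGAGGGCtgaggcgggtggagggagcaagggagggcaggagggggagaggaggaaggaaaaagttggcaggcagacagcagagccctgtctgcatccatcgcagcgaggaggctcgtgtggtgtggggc
Nr2e3, higher in DTL3, chr9:59950030-59950329, minus strand: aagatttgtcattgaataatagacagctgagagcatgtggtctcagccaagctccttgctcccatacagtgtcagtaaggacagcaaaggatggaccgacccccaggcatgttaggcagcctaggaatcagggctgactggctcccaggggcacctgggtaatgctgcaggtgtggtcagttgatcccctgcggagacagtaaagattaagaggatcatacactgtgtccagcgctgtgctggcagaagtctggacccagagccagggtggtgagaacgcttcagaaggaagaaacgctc
Igfbp2, the gene with the second largest difference towards ATL, first of 2 starts, chr1:72824230-72824529, plus strand: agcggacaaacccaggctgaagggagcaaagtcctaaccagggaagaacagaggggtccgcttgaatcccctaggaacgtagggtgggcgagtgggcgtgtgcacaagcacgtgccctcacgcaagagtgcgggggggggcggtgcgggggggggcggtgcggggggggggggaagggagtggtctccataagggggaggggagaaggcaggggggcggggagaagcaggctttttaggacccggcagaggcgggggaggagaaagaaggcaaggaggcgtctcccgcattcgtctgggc
Tfap2b, higher in ATL, chr1:19211804-19212103, plus strand: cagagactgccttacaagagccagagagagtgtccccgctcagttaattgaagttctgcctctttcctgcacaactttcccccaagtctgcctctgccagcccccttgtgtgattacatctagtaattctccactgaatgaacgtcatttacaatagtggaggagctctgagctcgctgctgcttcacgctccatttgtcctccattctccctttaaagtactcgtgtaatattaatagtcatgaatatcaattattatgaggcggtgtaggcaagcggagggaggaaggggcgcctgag
The Aqp1 window held 1 match and the other 3 windows printed held 0, as did the second start of Igfbp2. Over the promoter table, GCCNNNGGC was found in 16.6% of all 32851 windows, 22.5% of the 16337 windows of tested genes, 24.8% of the 1061 windows (809 genes) higher in DTL3 and 26.2% of the 461 windows (326 genes) higher in ATL. The Nr2e3 core AAGTCA was found in 15.1%, 12.5%, 11.4% and 8.03% of the same 4 sets, the POU octamer ATGCAAAT in 1.74%, 1.44%, 2.45% and 1.3%, and TGGAAA, the core of the tonicity element, in 21.4%, 18.3%, 16.6% and 21.5%. These are matches to letters on either strand, which are not evidence of binding, and the windows were not tested against each other. Psca, Bsnd, Osr2, Lypd2, Slurp1 and Cldn8 have no window here.

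The 12 largest differences towards DTL3, among protein-coding genes with at least 10 TPM there, were Aqp1, Osr2, Rnf186, Nr2e3, Bst1, Slc39a8, Bdh2, Rnf183, Npnt, Fxyd4, Gprc5a and Fmo2. All 12 calls held under each of 21 alternatives. Osr2, an odd-skipped zinc finger transcription factor, was at 497, 679.8 and 531 TPM in DTL3 and 0, 0, 0.3 and 0 TPM in ATL (difference 9.05, SE 0.32, adjusted p = 1.02e-08). Nr2e3, a nuclear receptor best known from photoreceptors, was at 1104, 399.9 and 805 TPM in DTL3 and 0, 0.86, 16.6 and 0.37 TPM in ATL (difference 8.1, SE 0.8, adjusted p = 5.11e-05). ATL mouse 4 was the highest ATL mouse for Nr2e3, at 16.6 TPM, against 399.9 TPM in the lowest DTL3 mouse. Along the nephron Nr2e3 had its highest mean in DTL3, with 769.6 TPM there and 14.4 TPM in DTL2, the next highest of the 15 groups. Bst1, an NAD-consuming surface enzyme, was at 872, 906 and 814 TPM in DTL3 and 1.67, 1.96, 2.12 and 3.45 TPM in ATL (difference 8.06, SE 0.25, adjusted p = 3.73e-09). Slc39a8, a zinc and manganese importer, was at 400.2, 255 and 327 TPM in DTL3 and 0.95, 0, 0 and 0.73 TPM in ATL (difference 7.9, SE 0.39, adjusted p = 1.57e-07). Bst1 and Slc39a8 had their highest means in DTL3. The next for Bst1 were DTL2 (405 TPM) and DTL1 (396 TPM), and for Slc39a8 DTL1 (146 TPM) and the S2 proximal tubule (122 TPM).

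Rnf186 and Rnf183, related membrane-bound ubiquitin ligases, were both listed at 0 TPM in all 4 ATL mice. Rnf186 was at 654, 254 and 326 TPM in DTL3 mice 1, 2 and 3 (adjusted p = 1.21e-07). Rnf183 was at 139, 259 and 128 TPM in the same mice (adjusted p = 1.01e-06). Both had higher means elsewhere: Rnf186 was highest in the cortical collecting duct (488 TPM) and Rnf183 in the inner medullary collecting duct (754 TPM). Bdh2, a cytosolic dehydrogenase linked to the synthesis of an iron-binding siderophore, was at 502, 642 and 516 TPM in DTL3 and 0.2, 0.73, 11.7 and 1.28 TPM in ATL (difference 7.63, SE 0.63, adjusted p = 1.2e-05). Its level was also high in DTL2 (879 TPM) and the S3 proximal tubule (707 TPM). Gprc5a, an orphan receptor inducible by retinoic acid, was at 324, 265 and 274 TPM in DTL3 and 0, 3.85, 0 and 2.15 TPM in ATL (difference 7.18, SE 0.54, adjusted p = 5.64e-06). Fmo2, a flavin-containing monooxygenase, was at 263, 185 and 188 TPM in DTL3 and 0.01, 0, 1.6 and 1.03 TPM in ATL (difference 7.11, SE 0.45, adjusted p = 1.29e-06). Among the most abundant DTL3 calls was Ndufb8, a complex I subunit, at 6217, 5338 and 5163 TPM in DTL3 and 1035, 1157, 462 and 684 TPM in ATL (difference 2.82, SE 0.37, adjusted p = 0.000489). Apela, a peptide ligand of the apelin receptor, was at 4129.9, 3373 and 4294 TPM in DTL3 and 527, 669, 367 and 639 TPM in ATL (difference 2.86, SE 0.3, adjusted p = 8.36e-05). Gstm1, a glutathione transferase, was at 2814, 3068 and 2861 TPM in DTL3 and 77.6, 80.1, 50.2 and 31.8 TPM in ATL (difference 5.67, SE 0.3, adjusted p = 2.51e-07). Actb, cytoplasmic beta-actin, was at 3274, 4622 and 2681 TPM in DTL3 and 1202, 1307, 378 and 402 TPM in ATL (difference 2.29, SE 0.47, adjusted p = 0.0104). Actb lost its call without DTL3 mouse 2 or ATL mouse 6 (adjusted p up to 0.072).

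Among the 12 largest differences towards ATL were Psca, Igfbp2, Bsnd, Cldn10, Tldc2, Nccrp1, Cldn16, Sostdc1, Ccdc3 and Prom2, and these 10 calls also held under each of the 21 alternatives. Igfbp2, a secreted insulin-like growth factor binding protein, was at 0.16, 0.45 and 1.05 TPM in DTL3 and 2608, 6468, 1979 and 2443 TPM in ATL (difference -10.98, SE 0.36, adjusted p = 5.34e-09). Igfbp2 had its highest mean in ATL by a wide margin, the next highest group being the glomerulus (9.68 TPM). Ccdc3, a secreted coiled-coil protein, followed the same order, at 0.61, 0.06 and 1.29 TPM in DTL3 and 755, 493, 235 and 255 TPM in ATL (difference -7.99, SE 0.41, adjusted p = 1.95e-07). The glomerulus also came next for Ccdc3, at 20.2 TPM. Tldc2, a TLDc domain protein, was at 0.59, 0 and 0.18 TPM in DTL3 and 1241, 1211, 404 and 1017 TPM in ATL (difference -9.5, SE 0.37, adjusted p = 1.97e-08). Nccrp1, an F-box protein, was at 0, 0 and 0.05 TPM in DTL3 and 790.0, 544, 289 and 315 TPM in ATL (difference -8.78, SE 0.35, adjusted p = 2.08e-08). It was higher still in the medullary thick limb, at 803 TPM. Prom2, a membrane protein of cell protrusions, was at 0.29, 1.52 and 0.81 TPM in DTL3 and 502, 519, 194 and 295 TPM in ATL (difference -7.61, SE 0.37, adjusted p = 1.4e-07).

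Among the most abundant ATL calls, Sptssb, a small subunit of serine palmitoyltransferase, was at 17.6, 42 and 41.3 TPM in DTL3 and 4663, 4123, 2062 and 4537 TPM in ATL (difference -6.83, SE 0.36, adjusted p = 2.51e-07). Its mean was highest in ATL, the next highest of the 15 groups being DTL3 at 33.6 TPM. Nupr1, a stress-induced chromatin protein, was at 1324, 1877 and 2099 TPM in DTL3 and 6231, 6578, 10243 and 4148 TPM in ATL (difference -1.9, SE 0.45, adjusted p = 0.022). Nupr1 lost its call without any 1 DTL3 mouse (adjusted p up to 0.24). Of the 449 genes called higher in ATL, 245 (54.6%) had their highest mean of all 15 groups in ATL. Of the 1145 genes called higher in DTL3, 365 (31.9%) had theirs in DTL3, 176 in the glomerulus and 136 in DTL1. The same shares were not taken over all tested genes, so these counts are description only.

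**Figure D4:**
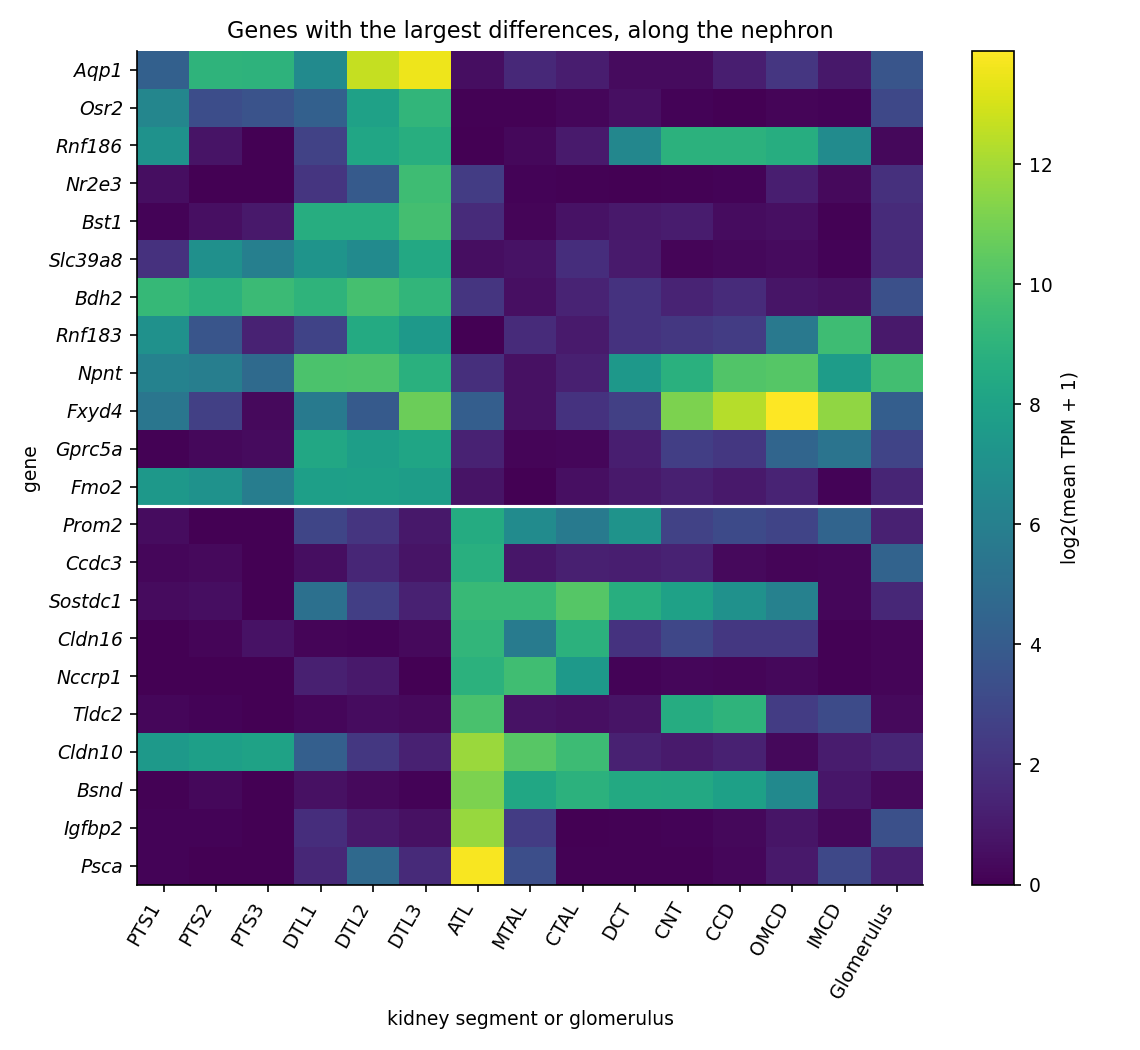
Colour gives log2(mean TPM + 1) of the 12 genes with the largest difference towards DTL3 (above the white line) and 10 of the 12 towards ATL (below it) in the 14 tubule segments and the glomerulus. Aqp1 continues into DTL2 and the proximal straight tubule, Fxyd4 is brightest in the outer medullary collecting duct, and Psca, Igfbp2 and Ccdc3 are bright in the ATL column.

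Sodium, potassium and acid-base genes differed in a few members. Of 18 tested genes of sodium entry and the sodium pump, 3 were higher in DTL3 and by limma 0 in ATL, with 1 at an unadjusted p under 0.05 (median 0.48). After either rescaling 1 was higher in DTL3. Fxyd4, a regulator of the sodium pump known from collecting duct, was at 1477, 1839 and 1850.3 TPM in DTL3 and 8.41, 0.95, 27.1 and 29.3 TPM in ATL (difference 7.26, SE 0.74, adjusted p = 6.58e-05). Its highest mean was 15150 TPM, in the outer medullary collecting duct. Slc9a3r2, a scaffold for sodium-proton exchangers, was at 79.6, 44.1 and 56.7 TPM in DTL3 and 20.5, 9.52, 32.9 and 14.1 TPM in ATL (difference 1.68, SE 0.38, adjusted p = 0.0184). Slc9a3r2 lost its call without DTL3 mouse 1 or 3 or ATL mouse 6 (adjusted p up to 0.129). The pump subunit Atp1b1 (difference -0.43, SE 0.26, adjusted p = 0.457) and the pump regulator Fxyd2 (difference -0.55, SE 0.6, adjusted p = 0.729), both abundant in each segment, were not called. Levels of Fxyd2 were 6952, 7394 and 6491 TPM in DTL3 and 13957, 9968, 7358 and 10509.5 TPM in ATL. ATL mouse 4 lay within the DTL3 range and the other ATL mice lay above it.

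Of 12 tested potassium channels, 3 were higher in DTL3 and 1 in ATL (median 0.52), with the same counts when any 1 mouse was left out. Kcnk1, a background potassium channel, was at 134, 111 and 130.0 TPM in DTL3 and 0.96, 1.84, 0 and 2.56 TPM in ATL (difference 5.9, SE 0.47, adjusted p = 9.05e-06). Kcnj16, an inward rectifier subunit, was at 65.7, 60.9 and 55.3 TPM in DTL3 and 1.02, 0.06, 0 and 0.34 TPM in ATL (difference 5.56, SE 0.52, adjusted p = 3.12e-05). Kcnq1, a voltage-gated channel, was at 38.2, 12.1 and 25.7 TPM in DTL3 and 1.42, 1.04, 0 and 0.31 TPM in ATL (difference 3.91, SE 0.64, adjusted p = 0.00228). The one channel on the ascending side was Kcnj13, an inward rectifier, at 9.09, 1.91 and 3.79 TPM in DTL3 and 123, 157, 182 and 145 TPM in ATL (difference -4.87, SE 0.37, adjusted p = 5.98e-06). The lowest ATL mouse was far above the highest DTL3 mouse for Kcnj13. Of 15 tested carbonic anhydrases and acid-base transporters, 2 were higher in DTL3 and by limma 0 in ATL, also 0 at an unadjusted p under 0.05 (median 0.64); without DTL3 mouse 1 or 3 the DTL3 count was 1. Slc4a11, a membrane transporter of protons and ammonia, was at 885, 849 and 1051 TPM in DTL3 and 76.6, 36.8, 60.1 and 37.3 TPM in ATL (difference 4.18, SE 0.27, adjusted p = 1.48e-06). Car2, cytosolic carbonic anhydrase, was at 70.7, 34.6 and 52.2 TPM in DTL3 and 16.6, 12.5, 23.1 and 19.4 TPM in ATL (difference 1.48, SE 0.31, adjusted p = 0.0128). Car2 lost its call without DTL3 mouse 1 or 3 (adjusted p up to 0.116).

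Cells of the inner medulla hold organic osmolytes against high salt and urea. Of 17 tested genes of this response, 1 was higher in DTL3 and 4 in ATL (median 0.12 against 0.33 over all genes). Slc6a6, the taurine transporter, was at 338, 221 and 362 TPM in DTL3 and 7.8, 1.78, 23.1 and 11.9 TPM in ATL (difference 5.01, SE 0.56, adjusted p = 0.000144). Sgk1, a salt- and steroid-induced kinase, was at 67.9, 229 and 106 TPM in DTL3 and 1334, 448, 1455 and 1195 TPM in ATL (difference -3.09, SE 0.45, adjusted p = 0.00107). The other 3 ATL calls were heat shock chaperones and stood near the threshold. Hspa1b (difference -1.2, SE 0.31, adjusted p = 0.0358) was lost without DTL3 mouse 1, DTL3 mouse 3 or ATL mouse 6 (adjusted p up to 0.219). Hsph1 (difference -1.08, SE 0.28, adjusted p = 0.0337) was lost without any 1 DTL3 mouse or ATL mouse 2 or 4 (adjusted p up to 0.211). Hspa4l (difference -1.22, SE 0.34, adjusted p = 0.0492) was lost without each mouse but ATL mouse 3 (adjusted p up to 0.233). The list's ATL count was 1, 2 and 1 without DTL3 mouse 1, 2 or 3 and 2 without ATL mouse 2 or 6, and its DTL3 count was 2 without ATL mouse 2, 4 or 6. Akr1b3, the aldose reductase that makes sorbitol, was at 2352, 3878 and 2573 TPM in DTL3 and 9832, 6102, 10008 and 7795 TPM in ATL and was not called (difference -1.53, SE 0.48, adjusted p = 0.0837). Its ATL mice all lay above its DTL3 mice, and it was called in 11 of 21 alternatives. Cryab, a small heat shock chaperone among the most abundant transcripts of both segments, overlapped between them at 9674, 15189 and 11048 TPM in DTL3 and 11869.9, 11014, 11545 and 9021 TPM in ATL (difference 0.12, SE 0.67, adjusted p = 0.959).

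Tight junction proteins differed in type. Claudins form the seal between cells and decide which ions pass it. Of 14 tested, 3 were higher in DTL3 and 5 in ATL (median -0.29 against 0.33 over all genes). On the ascending side, Cldn10, which forms ion-selective pores, was at 0.22, 3.03 and 1.04 TPM in DTL3 and 3241, 3567, 3008 and 4253 TPM in ATL (difference -10.66, SE 0.33, adjusted p = 3.73e-09). Cldn16, a claudin of magnesium and calcium passage, was at 0.23, 0.47 and 0.135 TPM in DTL3 and 611, 699, 287 and 685 TPM in ATL (difference -8.73, SE 0.32, adjusted p = 1.09e-08). Its partner Cldn19 was at 19.2, 91.1 and 70.6 TPM in DTL3 and 1078, 907, 522 and 1146 TPM in ATL (difference -4.1, SE 0.45, adjusted p = 0.000139). Cldn3, a sealing claudin, was at 27.8, 31.7 and 22.1 TPM in DTL3 and 260.1, 307, 83.9 and 227 TPM in ATL (difference -2.84, SE 0.38, adjusted p = 0.000544). ATL mouse 4 was the lowest ATL mouse for these 4 claudins. On the descending side, Cldn8, a barrier claudin of the distal nephron, was at 1196, 1289 and 1352 TPM in DTL3 and 38.9, 63.9, 19.2 and 62.1 TPM in ATL (difference 4.91, SE 0.35, adjusted p = 3.94e-06). Cldn2, the water and sodium pore of the leaky proximal tubule, was at 6.94, 4.77 and 7.43 TPM in DTL3 and 0.02, 0.02, 0.12 and 2.56 TPM in ATL (difference 2.35, SE 0.65, adjusted p = 0.0481). Cldn2 lost its call without any 1 DTL3 mouse or ATL mouse 2, 3 or 4 (adjusted p up to 0.192). Cldn15, a related cation pore, was at 54.5, 25.4 and 35.5 TPM in DTL3 and 11.7, 2.3, 14.8 and 7.34 TPM in ATL (difference 2.11, SE 0.52, adjusted p = 0.0274). Cldn15 lost its call without any 1 DTL3 mouse or ATL mouse 6 (adjusted p up to 0.19). The DTL3 count was 1 without any 1 DTL3 mouse, with Cldn8 alone left, and also 1 after median ratio rescaling.

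Cldn16 and Cldn19 are also thick ascending limb genes, and the thick limb markers were uneven between the groups. Of 7 tested, 4 were higher in ATL (Cldn16, Cldn19, Ppp1r1a and Ptger3) and 1 in DTL3 (Umod), and the list summed to 1136 to 2282 TPM in ATL and 305 to 432 TPM in DTL3. Slc12a1, the cotransporter that defines the thick limb, was nevertheless low, at 1.8, 0.38 and 0.6 TPM in DTL3 and 5.99, 25.6, 0.69 and 8.76 TPM in ATL (difference -2.04, SE 0.86, adjusted p = 0.22). The cortical thick limb had 6135 TPM of it. Umod, the uromodulin of thick limb cells, was at 253, 188 and 329.6 TPM in DTL3 and 6.41, 11.8, 16.1 and 3.18 TPM in ATL (difference 4.79, SE 0.43, adjusted p = 2.09e-05). Its mean in the cortical thick limb was 36935 TPM. Ppp1r1a, a phosphatase inhibitor, was at 2.37, 0.41 and 1.78 TPM in DTL3 and 524, 373, 273 and 320.0 TPM in ATL (difference -7.27, SE 0.33, adjusted p = 7.74e-08). The medullary thick limb had 2615 TPM of Ppp1r1a. The part of thick limb cells in the ATL values of these 4 genes was not tested beyond these levels.

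Of 20 other junction proteins tested, 7 were higher in DTL3 and 2 in ATL (median 0.71). The DTL3 count was 3 without any 1 DTL3 mouse and 4 without ATL mouse 2 or after median ratio rescaling. Tjp3, a scaffold of the tight junction, was at 99.4, 75.4 and 93 TPM in DTL3 and 4.04, 3.68, 4.51 and 3.84 TPM in ATL (difference 4.16, SE 0.3, adjusted p = 4.26e-06). F11r, a junctional adhesion molecule, was at 156, 87.5 and 104 TPM in DTL3 and 14.9, 18.3, 30.4 and 11 TPM in ATL (difference 2.62, SE 0.34, adjusted p = 0.000407). Cdh6, the K-cadherin of the early nephron, was at 68.6, 97.9 and 85.3 TPM in DTL3 and 0.91, 0.04, 7.84 and 4.17 TPM in ATL (difference 4.77, SE 0.64, adjusted p = 0.000583). On the ascending side, Cgnl1, a junctional linker to the cytoskeleton, was at 239, 209 and 236 TPM in DTL3 and 519.7, 436, 622 and 629 TPM in ATL (difference -1.26, SE 0.21, adjusted p = 0.00294). Cdh1, E-cadherin, was at 96.7, 84.6 and 108 TPM in DTL3 and 291, 288, 142 and 232 TPM in ATL (difference -1.25, SE 0.26, adjusted p = 0.0113). Cdh1 lost its call without DTL3 mouse 1 or 2 (adjusted p up to 0.0726). Cdh16 (difference 0.45, SE 0.39, adjusted p = 0.645) and Epcam (difference 0.63, SE 0.28, adjusted p = 0.256), adhesion proteins present throughout tubule epithelium, were not called.

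Psca belongs to a family of small Ly6 domain proteins, many of whose genes, but not all, lie side by side on chromosome 15. Of 19 tested family members, 5 were higher in DTL3 and 6 in ATL (median 0.39). Lypd2, a neighbour of Psca, was at 69.8, 8.51 and 62 TPM in DTL3 and 6035, 6414, 2546 and 6979.7 TPM in ATL (difference -7.23, SE 0.6, adjusted p = 1.25e-05). DTL2 also held much of it, at 5034 TPM. Slurp1, a secreted member, was at 3.8, 0 and 2.95 TPM in DTL3 and 102, 114, 43.1 and 153 TPM in ATL (difference -5.2, SE 0.55, adjusted p = 9.78e-05). Lynx1, a modulator of nicotinic receptors, was at 29.6, 24.5 and 19.4 TPM in DTL3 and 209, 252, 118 and 218 TPM in ATL (difference -2.94, SE 0.27, adjusted p = 3.27e-05). Slurp2 was listed at 0 TPM in each DTL3 mouse and at 4.44, 18.1, 10.9 and 4.66 TPM in ATL mice 2, 3, 4 and 6 (adjusted p = 0.0105). Slurp2 lost its call without any 1 DTL3 mouse (adjusted p up to 0.0667). In the RefSeq gene order on GRCm38.p6, used here for neighbours only, the first 6 genes of the run were Psca, Them6, Slurp1, Lypd2, Slurp2 and Lynx1, and 5 of the 6 were called higher in ATL, with Them6 not called. Cd59b, a complement inhibitor of the same fold encoded elsewhere, was also higher in ATL, at 394, 345 and 459 TPM in DTL3 and 1365, 1173, 722 and 811 TPM in ATL (difference -1.31, SE 0.28, adjusted p = 0.0117). Cd59b lost its call without any 1 DTL3 mouse (adjusted p up to 0.0903).

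Further along the same run, 3 members were higher in DTL3. Ly6e was at 876, 299 and 421 TPM in DTL3 and 53.9, 68.9, 109 and 76.4 TPM in ATL (difference 2.67, SE 0.34, adjusted p = 0.000412). Ly6c1 was at 819, 288 and 341 TPM in DTL3 and 61.5, 61, 52.6 and 59.6 TPM in ATL (difference 2.86, SE 0.31, adjusted p = 0.000118). Ly6a was at 377, 185 and 169 TPM in DTL3 and 51.2, 80.1, 57 and 34 TPM in ATL (difference 2.08, SE 0.33, adjusted p = 0.00187). Ly6a and Ly6c1 are surface proteins known from endothelium and blood cells, and DTL3 mouse 1 was the highest DTL3 mouse for all 3 genes. Plaur, the urokinase receptor, is encoded outside this run, on chromosome 7. It was at 65, 116 and 78 TPM in DTL3 and 4.06, 9.99, 11.1 and 7.9 TPM in ATL (difference 3.27, SE 0.36, adjusted p = 0.000132). Most endothelial markers were higher in DTL3, as these 3 Ly6 genes were. Of 9 tested, 6 were higher in DTL3 (Pecam1, Flt1, Tek, Plvap, Emcn and Egfl7) and 1 in ATL (Esam), and the list summed to 1026 to 2201 TPM in DTL3 and 585 to 1021 TPM in ATL. Flt1 was lost without any 1 DTL3 mouse (adjusted p up to 0.137), Tek without DTL3 mouse 1 (0.0643) and Esam without each mouse but ATL mouse 4 (up to 0.157). Plvap, of fenestrated capillaries, was at 1144, 403 and 643 TPM in DTL3 and 106, 151, 157 and 130.3 TPM in ATL (difference 2.3, SE 0.31, adjusted p = 0.000625), highest in DTL3 mouse 1. Pecam1, an endothelial adhesion protein, was at 92.9, 45.7 and 68 TPM in DTL3 and 11.3, 7.02, 22.7 and 11.9 TPM in ATL (difference 2.34, SE 0.38, adjusted p = 0.00228). The part of endothelial cells in the DTL3 values was not tested. Globin genes were listed at 0 TPM in every mouse, and no marker of proximal tubule, interstitial cells or leukocytes was called, although leukocyte markers summed to 347 TPM in ATL mouse 4 and to 34.7 TPM or less elsewhere.

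Transcription factors of kidney segments were called in both directions, with 6 of 29 tested higher in DTL3 and 6 in ATL (median 0.26). The counts were 5 and 8 after median ratio rescaling and 4 and 8 after quantile normalization. On the ascending side, Tfap2b, AP-2 beta of the distal nephron, was at 1.59, 2.73 and 3.52 TPM in DTL3 and 196, 205, 249.98 and 198 TPM in ATL (difference -5.95, SE 0.25, adjusted p = 4.45e-08). Prox1, a homeobox factor of lymphatic vessels and ascending thin limb, was at 0.51, 0.33 and 1.91 TPM in DTL3 and 126, 136, 37.1 and 136 TPM in ATL (difference -5.76, SE 0.49, adjusted p = 1.48e-05). Sim2, a basic helix-loop-helix factor, was at 0.39, 7.47 and 9.15 TPM in DTL3 and 95, 131, 92.2 and 87.9 TPM in ATL (difference -4.38, SE 0.56, adjusted p = 0.000393). Bcl6, a zinc finger repressor, was at 39.6, 68.9 and 57.6 TPM in DTL3 and 297, 298, 132 and 225 TPM in ATL (difference -2.05, SE 0.3, adjusted p = 0.00114). Mecom, a zinc finger factor of the distal nephron, was at 2.93, 4.87 and 4.61 TPM in DTL3 and 58.8, 64.1, 62.6 and 89.9 TPM in ATL (difference -3.77, SE 0.3, adjusted p = 7.86e-06). ATL mouse 4 had the lowest level of Prox1 and Bcl6 among ATL mice and the highest level of Tfap2b, so it was not low in every ATL gene. Those 5 calls held without any 1 mouse.

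On the descending side, Irx3, an Iroquois homeobox factor, was at 98.7, 91.2 and 95.9 TPM in DTL3 and 27.9, 42.9, 13.9 and 38.7 TPM in ATL (difference 1.71, SE 0.34, adjusted p = 0.00802). Ehf, an epithelial ETS factor, was at 309, 448 and 309.7 TPM in DTL3 and 88.7, 247, 59.2 and 119.7 TPM in ATL (difference 1.64, SE 0.39, adjusted p = 0.0225). Ehf lost its call without any 1 DTL3 mouse or ATL mouse 2 or 6 (adjusted p up to 0.127). Grhl2, a regulator of epithelial junction genes, was at 63.5, 56.9 and 71 TPM in DTL3 and 23.4, 22.2, 27.4 and 35.7 TPM in ATL (difference 1.22, SE 0.24, adjusted p = 0.00896). Grhl2 lost its call without DTL3 mouse 1 or 3 (adjusted p up to 0.0791). It was also lost with ATL mice 4 and 6 alone and after either rescaling, where the difference was 0.98 and 0.94. The DTL3 count of segment factors was 2 without DTL3 mouse 1 or 3. Pax8, expressed along the whole nephron, overlapped between the segments at 824, 1249 and 1088 TPM in DTL3 and 812, 1144, 692 and 697 TPM in ATL (difference 0.34, SE 0.28, adjusted p = 0.608). Of 30 tested nuclear receptors, 3 were higher in DTL3 and 2 in ATL (median 0.36). Besides Nr2e3, Nr1d1, a circadian repressor, was higher in DTL3 at 277, 307 and 357 TPM in DTL3 and 109.8, 135, 34 and 89.9 TPM in ATL (difference 1.91, SE 0.38, adjusted p = 0.00847). Nr2f2, an orphan receptor also known from veins, was higher in ATL at 19.9, 12.5 and 27.8 TPM in DTL3 and 53.9, 46.8, 47.2 and 70.3 TPM in ATL (difference -1.47, SE 0.29, adjusted p = 0.0081). Rora (difference 1, SE 0.22, adjusted p = 0.0147) was higher in DTL3 and was lost without DTL3 mouse 1 or 3 or ATL mouse 2 or 6 (adjusted p up to 0.103). The ATL count of nuclear receptors was 1 without any 1 DTL3 mouse.

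Hox genes, which keep the positional identity of embryonic tissue, were called in both directions. Of 30 tested, 4 were higher in DTL3 and 7 in ATL (median -0.25 against 0.33 over all genes). By cluster, 2 Hoxa and 2 Hoxb genes were higher in DTL3, and 1 Hoxa, 3 Hoxc and 3 Hoxd genes in ATL. Summed over each cluster, Hoxa genes reached 435 to 489 TPM in DTL3 and 262 to 338 TPM in ATL, and Hoxb genes 702 to 719 TPM and 350 to 485 TPM. The order was turned for Hoxc, at 3.29 to 15.7 TPM in DTL3 and 40.7 to 60.7 TPM in ATL, and for Hoxd, at 11.4 to 22 TPM and 81.3 to 109 TPM. In each of the 4 sums no mouse of one segment reached into the range of the other.

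Hoxa9 was at 129, 131 and 149.6 TPM in DTL3 and 43.7, 49.3, 45.5 and 38.5 TPM in ATL (difference 1.61, SE 0.2, adjusted p = 0.000281). Hoxb2 was at 109, 120.1 and 118 TPM in DTL3 and 37.6, 35.8, 29.1 and 29.6 TPM in ATL (difference 1.79, SE 0.21, adjusted p = 0.000181). Both calls held in all 21 alternatives. Hoxd10 was at 2.06, 0.73 and 0.725 TPM in DTL3 and 28.4, 40.3, 38.9 and 34.8 TPM in ATL (difference -4.13, SE 0.42, adjusted p = 6.66e-05). Hoxd9 was at 2.75, 2.04 and 2.69 TPM in DTL3 and 16.2, 15.6, 18.9 and 23.8 TPM in ATL (difference -2.5, SE 0.43, adjusted p = 0.00329). Hoxd8 was at 4.57, 11.7 and 14 TPM in DTL3 and 34, 36.3, 39.2 and 42.9 TPM in ATL (difference -1.95, SE 0.36, adjusted p = 0.00493). Hoxc6 was at 0.36, 0.32 and 2.58 TPM in DTL3 and 13.2, 22.5, 14 and 17.9 TPM in ATL (difference -3.24, SE 0.56, adjusted p = 0.0036). The summed Hoxc and Hoxd levels stayed below the summed Hoxa and Hoxb levels in every mouse of both segments, and Hoxd8 was higher in the distal convoluted tubule, at 559 TPM, than in ATL. A call nearer the threshold was Hoxa10 (difference 1.1, SE 0.26, adjusted p = 0.021), which was lost without any 1 DTL3 mouse or ATL mouse 6 (adjusted p up to 0.113). Hoxb8 (difference 2.23, SE 0.62, adjusted p = 0.0485) was lost without any 1 DTL3 mouse or ATL mouse 2 or 3 (adjusted p up to 0.255). Hoxa5 (difference -1.11, SE 0.25, adjusted p = 0.0165) was lost without any 1 DTL3 mouse (adjusted p up to 0.0876). Hoxc5 (difference -2.82, SE 0.63, adjusted p = 0.0168) and Hoxc10 (difference -2.51, SE 0.57, adjusted p = 0.0179) were each lost without any 1 DTL3 mouse (adjusted p up to 0.0906 and 0.103). The counts without any 1 DTL3 mouse were 2 in DTL3 and 4 in ATL, and after either rescaling 2 in DTL3 and 7 in ATL.

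Of 19 tested genes of the hypoxia response, 8 were higher in DTL3 and by limma 0 in ATL, also 0 at an unadjusted p under 0.05, with a median difference of 1.22 against 0.33 over all genes. The inner medulla has little oxygen, and cells answer low oxygen through HIF-1, whose alpha subunit is marked for destruction by prolyl hydroxylases when oxygen is present. Hif1a, the alpha subunit, was at 392, 564 and 488 TPM in DTL3 and 80.5, 80.2, 100.1 and 75.8 TPM in ATL (difference 2.5, SE 0.2, adjusted p = 1.08e-05). Egln3, one of these prolyl hydroxylases, was at 61.8, 56.4 and 46.5 TPM in DTL3 and 6.99, 8.24, 2.49 and 11.6 TPM in ATL (difference 2.88, SE 0.42, adjusted p = 0.00112). Egln1, another of them, was at 44.1, 39.1 and 50.9 TPM in DTL3 and 16.4, 11.2, 11.7 and 12.4 TPM in ATL (difference 1.72, SE 0.28, adjusted p = 0.00219). Bnip3, which directs mitochondria to autophagy, was at 189, 137 and 149 TPM in DTL3 and 50.9, 42.6, 28.2 and 35.1 TPM in ATL (difference 2, SE 0.24, adjusted p = 0.000263). P4ha1, which hydroxylates collagen, was at 169, 148 and 164 TPM in DTL3 and 55.5, 51.8, 69.7 and 54.2 TPM in ATL (difference 1.46, SE 0.2, adjusted p = 0.000544). The margin between the groups was wide for Hif1a. Pdk1, which keeps pyruvate out of mitochondria, was at 43.9, 30.6 and 43.9 TPM in DTL3 and 10.8, 10.7, 14.7 and 21 TPM in ATL (difference 1.44, SE 0.32, adjusted p = 0.0162). Pdk1 lost its call without DTL3 mouse 1 or 3 (adjusted p up to 0.119). Ankrd37 (difference 1.22, SE 0.23, adjusted p = 0.00636) was lost without DTL3 mouse 1 or 2 (adjusted p up to 0.0509). Ndrg1 (difference 1.23, SE 0.3, adjusted p = 0.025) was lost without any 1 DTL3 mouse or ATL mouse 6 (adjusted p up to 0.153). The DTL3 count was 5 without DTL3 mouse 1 and 6 after either rescaling. With ATL mice 2 and 3 alone the median was 0.88, close to the 0.73 over all genes under that setting. Vegfa, the vascular growth factor, was at 80.5, 108 and 102 TPM in DTL3 and 52, 70.4, 73.3 and 68.1 TPM in ATL and was not called (difference 0.55, SE 0.21, adjusted p = 0.169), and neither was Bnip3l (difference 0.56, SE 0.22, adjusted p = 0.184).

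**Figure D5:**
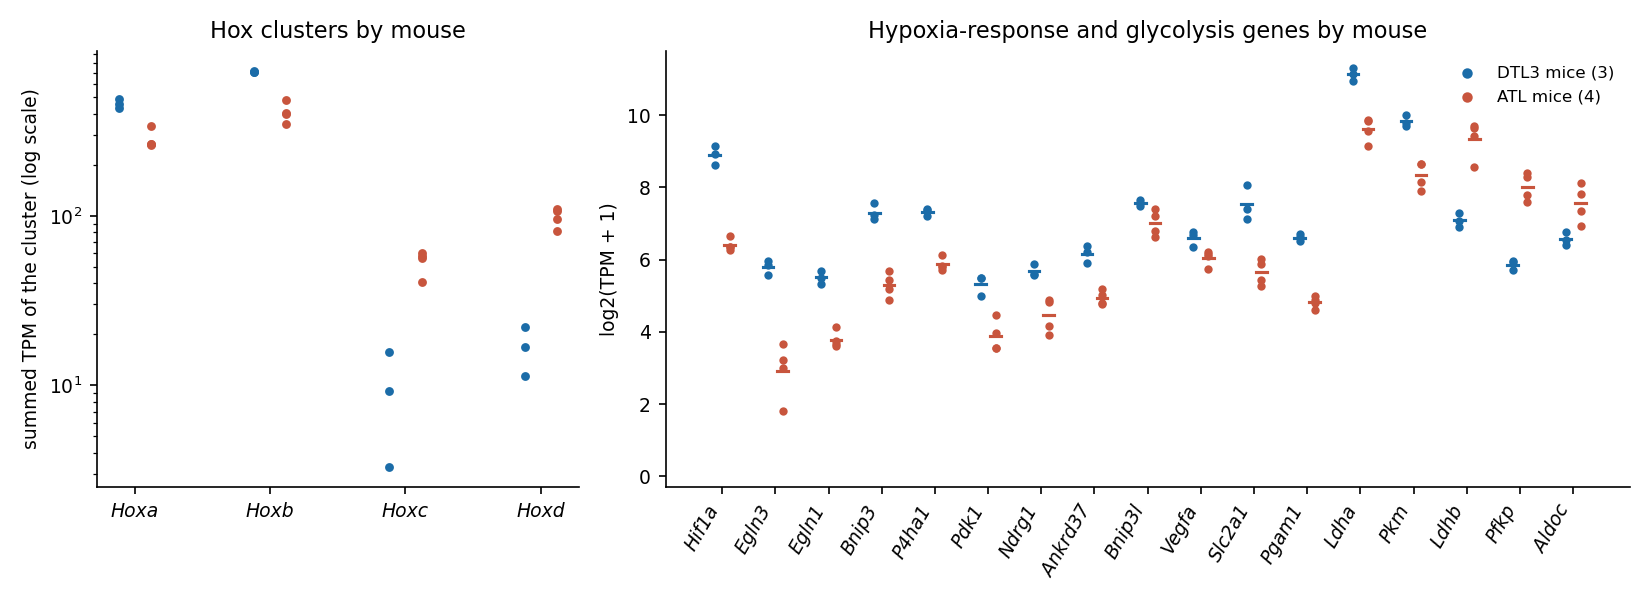
On the left, points give the summed TPM of each Hox cluster in single mice (blue, 3 DTL3; red, 4 ATL) on a log axis, with Hoxa and Hoxb higher in DTL3 and Hoxc and Hoxd higher in ATL. On the right, points give log2(TPM + 1) of hypoxia-response and glycolysis genes in single mice and lines their means, with Hif1a above all ATL mice in each DTL3 mouse and Ldhb and Pfkp in the opposite order.

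Glycolysis genes included calls in both directions, with 9 of 30 tested higher in DTL3 and 4 in ATL (median 0.73). Subunits of lactate dehydrogenase were in opposite order. Ldha, the muscle-type subunit, was at 2543, 2271 and 1985 TPM in DTL3 and 917, 942, 564 and 763 TPM in ATL (difference 1.53, SE 0.29, adjusted p = 0.0059). Ldhb, the heart-type subunit, was at 157, 119 and 135 TPM in DTL3 and 802, 829, 381 and 689 TPM in ATL (difference -2.24, SE 0.28, adjusted p = 0.000332). The call of Ldha was lost without DTL3 mouse 1 (adjusted p up to 0.0524). Pkm, pyruvate kinase, was at 1020.0, 890.5 and 834 TPM in DTL3 and 402, 402, 237 and 281 TPM in ATL (difference 1.5, SE 0.25, adjusted p = 0.00271). Slc2a1, the glucose transporter GLUT1, was at 269, 139 and 168 TPM in DTL3 and 57.7, 63.5, 42.3 and 37.3 TPM in ATL (difference 1.89, SE 0.27, adjusted p = 0.000977). Pgam1, phosphoglycerate mutase, was at 104, 97.2 and 90.1 TPM in DTL3 and 28.8, 23.4, 31.1 and 27.1 TPM in ATL (difference 1.78, SE 0.21, adjusted p = 0.000237). On the ascending side, Pfkp, the platelet-type phosphofructokinase, was at 60.9, 51.4 and 60.2 TPM in DTL3 and 338, 315, 219 and 194 TPM in ATL (difference -2.16, SE 0.23, adjusted p = 0.000109). Nearer the threshold, Gapdh (difference 1.15, SE 0.23, adjusted p = 0.00957) was lost without any 1 DTL3 mouse (adjusted p up to 0.0717). Gapdh was also lost in 5 other alternatives, with differences of 0.91 to 0.99, among them both rescalings. Tpi1 (difference 1.55, SE 0.34, adjusted p = 0.0148) was lost without any 1 DTL3 mouse or ATL mouse 6 (adjusted p up to 0.0822). Aldoc, an aldolase (difference -1, SE 0.27, adjusted p = 0.0449), was lost without any 1 DTL3 mouse or ATL mouse 2, 3 or 6 (adjusted p up to 0.205). Slc16a7, a monocarboxylate transporter (difference -2.74, SE 0.57, adjusted p = 0.011), was lost without DTL3 mouse 1 (adjusted p up to 0.0621). The counts were 5 in DTL3 and 2 in ATL without DTL3 mouse 1. Of 33 tested genes of oxidative metabolism, 2 (6.06% against 5.01% of all genes) were higher in DTL3 and by limma 0 in ATL, also 0 at an unadjusted p under 0.05 (median 0.51): the cytochrome oxidase subunits Cox6a1 (difference 1.37, SE 0.32, adjusted p = 0.0214) and Cox8a (difference 1.25, SE 0.3, adjusted p = 0.0261); both were lost without any 1 DTL3 mouse or ATL mouse 6 (adjusted p up to 0.138 and 0.17).

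Basement membrane genes were called in DTL3 in 8 of 25 tested and in ATL in 3 (median 0.63), and the DTL3 count was 5 without DTL3 mouse 1 or 3. Npnt, nephronectin, a ligand of an epithelial integrin, was at 597, 340.2 and 430.4 TPM in DTL3 and 0.44, 0.01, 4.6 and 5.82 TPM in ATL (difference 7.35, SE 0.6, adjusted p = 1.12e-05). Lamb1, a laminin beta chain, was at 333, 240.4 and 335 TPM in DTL3 and 24.7, 46, 29 and 38 TPM in ATL (difference 3.12, SE 0.25, adjusted p = 8.84e-06). Type IV collagen chains took opposite sides. Col4a1 was at 103, 56.2 and 70.2 TPM in DTL3 and 0.61, 1.14, 13.2 and 5.76 TPM in ATL (difference 4.14, SE 0.66, adjusted p = 0.00208). Its partner Col4a2 was at 54.3, 25.8 and 43.2 TPM in DTL3 and 0.04, 0.01, 3.13 and 1.17 TPM in ATL (difference 4.52, SE 0.64, adjusted p = 0.000773). Higher in ATL was Col4a5, at 60.4, 84.8 and 66.6 TPM in DTL3 and 148, 180.2, 141 and 205 TPM in ATL (difference -1.25, SE 0.21, adjusted p = 0.00336). Col4a6 was at 6.61, 16.1 and 7.9 TPM in DTL3 and 61.2, 49.3, 33.9 and 67.8 TPM in ATL (difference -2.33, SE 0.35, adjusted p = 0.0014). Col4a3, a chain of the same family, overlapped at 278, 262 and 328 TPM in DTL3 and 285, 236, 386 and 317 TPM in ATL (difference -0.06, SE 0.22, adjusted p = 0.932). Col18a1, the source of endostatin, was higher in ATL at 117, 120.5 and 126 TPM in DTL3 and 368, 543, 209 and 336 TPM in ATL (difference -1.5, SE 0.28, adjusted p = 0.00561). Col4a1 and Col4a2 are also made by endothelium, of whose 9 tested markers 6 were higher in DTL3 as given above, and the part of endothelium in their values was not tested.

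Signals and receptors differed gene by gene. In the BMP and activin pathway, 1 of 26 tested genes was higher in DTL3 and 4 in ATL (median 0.10). Sostdc1, a secreted BMP antagonist, was at 0.88, 2.24 and 1.03 TPM in DTL3 and 681, 855, 494 and 567 TPM in ATL (difference -8.12, SE 0.27, adjusted p = 5.53e-09). Chrdl1, another, was at 0.06, 0 and 0.445 TPM in DTL3 and 25.4, 53.5, 33.8 and 48.4 TPM in ATL (difference -5.1, SE 0.47, adjusted p = 3.12e-05). Id3, a target gene of BMP signalling, was at 34.1, 24.5 and 36.3 TPM in DTL3 and 259, 214, 112 and 166 TPM in ATL (difference -2.49, SE 0.28, adjusted p = 0.000167). Id4, a relative of Id3, was at 6.07, 8.8 and 7.48 TPM in DTL3 and 38.7, 58.3, 77.1 and 64.1 TPM in ATL (difference -2.81, SE 0.3, adjusted p = 0.000105). All 4 were called higher in ATL. Gdf15, a stress-induced ligand of the family, was higher in DTL3 at 15.3, 111 and 21.4 TPM in DTL3 and 0, 1.35, 2.27 and 0.24 TPM in ATL (difference 4.29, SE 0.75, adjusted p = 0.00377). DTL3 mouse 2 was far above the other DTL3 mice. The DTL3 count was 2 without ATL mouse 3 or 4. In the insulin-like growth factor axis, 1 of 15 was higher in each segment (median 0.87). Igfbp2 was the one in ATL, as given above. Igf1, the ligand, was higher in DTL3 at 55.4, 32.2 and 36.8 TPM in DTL3 and 2.88, 8.01, 17.1 and 6.76 TPM in ATL (difference 2.3, SE 0.48, adjusted p = 0.0111). Igf1 lost its call without DTL3 mouse 1 or 3 (adjusted p up to 0.0978), and without ATL mouse 4 the counts were 5 in DTL3 and 2 in ATL. Igfbp7, abundant in both segments, was at 5774, 4823 and 5580.3 TPM in DTL3 and 12698, 12346, 10436 and 11399 TPM in ATL and was not called (difference -1.12, SE 0.57, adjusted p = 0.331). It too was separated between the groups, and it was called in 8 of 21 alternatives. In the Notch pathway, Jag1, a ligand, was the 1 of 17 (5.88% against 5.01% of all genes) higher in DTL3, with by limma 0 higher in ATL and 2 at an unadjusted p under 0.05 (median 0.80). It was at 11.8, 7.94 and 10.8 TPM in DTL3 and 2.49, 0.37, 0.44 and 1.57 TPM in ATL (difference 2.41, SE 0.62, adjusted p = 0.0343). Jag1 lost its call without any 1 DTL3 mouse or ATL mouse 3 (adjusted p up to 0.2). After either rescaling 0 Notch genes were called. Without ATL mouse 2 there were 2 Notch genes higher in DTL3, and without ATL mouse 4 there were 3 higher in ATL.

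Prostaglandin genes were called in DTL3 in 3 of 14 tested and in ATL in 2 (median 0.34). The receptors were on opposite sides. Ptger2, an EP2 receptor that raises cyclic AMP, was at 47.5, 18.6 and 31.5 TPM in DTL3 and 0.02, 0, 1.25 and 0 TPM in ATL (difference 4.67, SE 0.62, adjusted p = 0.000544). Ptger3, an EP3 receptor that lowers it, was at 1.98, 2.2 and 0.965 TPM in DTL3 and 52.6, 46.5, 20.5 and 25.9 TPM in ATL (difference -3.72, SE 0.46, adjusted p = 0.000296). Slco2a1, a prostaglandin importer, was at 29, 70.9 and 53.5 TPM in DTL3 and 0.36, 0.03, 1.69 and 1.26 TPM in ATL (difference 4.84, SE 0.57, adjusted p = 0.000208). Ptgds, a prostaglandin D synthase, was at 21.9, 8.31 and 25.1 TPM in DTL3 and 229, 361, 246 and 275 TPM in ATL (difference -3.96, SE 0.33, adjusted p = 1.3e-05). Ptgs1, cyclooxygenase 1, was at 14.3, 8.32 and 8.78 TPM in DTL3 and 0, 1.39, 0.54 and 0.91 TPM in ATL (difference 2.74, SE 0.62, adjusted p = 0.0174). Ptgs1 lost its call without any 1 DTL3 mouse (adjusted p up to 0.127). Of 29 tested hormone and vasoactive receptor genes, 5 were higher in DTL3 and 2 in ATL (median 0.37), and the DTL3 count was 3 without DTL3 mouse 1 or 3 or after quantile normalization. Avpr2, the vasopressin V2 receptor, was at 11.7, 22.2 and 15 TPM in DTL3 and 237, 211, 108 and 201 TPM in ATL (difference -3.45, SE 0.3, adjusted p = 1.93e-05). Receptors of the EGF family were split. Egfr was at 88.4, 124 and 111 TPM in DTL3 and 17.4, 34.6, 11.1 and 16.7 TPM in ATL (difference 2.48, SE 0.33, adjusted p = 0.000587). Erbb4 was at 0.21, 0.22 and 0.315 TPM in DTL3 and 10.5, 25.3, 24.8 and 22.6 TPM in ATL (difference -4.05, SE 0.55, adjusted p = 0.000601). Met, the hepatocyte growth factor receptor, was at 136, 134 and 168 TPM in DTL3 and 48.2, 33, 22.8 and 38 TPM in ATL (difference 2.05, SE 0.26, adjusted p = 0.000366). P2ry2, a receptor for extracellular ATP, was at 89.1, 112 and 104 TPM in DTL3 and 29.9, 27.5, 11.2 and 20.2 TPM in ATL (difference 2.22, SE 0.32, adjusted p = 0.000862). Adora1, an adenosine receptor (difference 1.49, SE 0.41, adjusted p = 0.048), was higher in DTL3 and was lost without any 1 DTL3 mouse or ATL mouse 2 or 6 (adjusted p up to 0.217).

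Smaller families of surface, filament and calcium-binding proteins also had members on either side. Of 10 tested S100 proteins, 1 was higher in each segment (median 0.35), and 2 in ATL after median ratio rescaling. S100a10, the partner of annexin A2, was at 765, 638 and 582 TPM in DTL3 and 31.9, 31.4, 32.9 and 34.9 TPM in ATL (difference 4.29, SE 0.19, adjusted p = 5.34e-08). S100a6 (difference -1.46, SE 0.37, adjusted p = 0.03) was higher in ATL and was lost without any 1 DTL3 mouse or ATL mouse 6 (adjusted p up to 0.252). Of 10 tested annexins, membrane-binding proteins, 3 were higher in DTL3 and 2 in ATL (median -0.08). Anxa1 was at 15.9, 25 and 13.1 TPM in DTL3 and 939, 1075, 576 and 784 TPM in ATL (difference -5.49, SE 0.27, adjusted p = 1.48e-07). Anxa6 was at 297, 295 and 286 TPM in DTL3 and 113, 115, 43.2 and 66 TPM in ATL (difference 1.89, SE 0.31, adjusted p = 0.00244). Anxa11 was at 53.1, 57.8 and 43.9 TPM in DTL3 and 18.3, 16.3, 7.37 and 8.56 TPM in ATL (difference 2.03, SE 0.35, adjusted p = 0.00344). Anxa3 (difference 2.26, SE 0.56, adjusted p = 0.029) was higher in DTL3 and was lost without any 1 DTL3 mouse or ATL mouse 2 (adjusted p up to 0.215). Anxa5 (difference -1.22, SE 0.25, adjusted p = 0.00985) was higher in ATL and was lost without any 1 DTL3 mouse (adjusted p up to 0.0763). The ATL annexin count was 1 without any 1 DTL3 mouse and 4 without ATL mouse 4. Anxa2 overlapped between the segments at 1242, 1433 and 1302 TPM in DTL3 and 2416, 2475, 970.2 and 1949 TPM in ATL (difference -0.47, SE 0.37, adjusted p = 0.588).

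Of 4 tested uroplakins, plaque proteins of the urothelium, 1 was higher in each segment (median -1.93). Upk3a was at 97.1, 33.4 and 55.8 TPM in DTL3 and 0, 0, 0.74 and 0.32 TPM in ATL (difference 5.55, SE 0.57, adjusted p = 7.22e-05). Upk3b was at 105, 152 and 121 TPM in DTL3 and 683, 667, 352 and 490.3 TPM in ATL (difference -2.08, SE 0.26, adjusted p = 0.000375). The urothelium and papillary surface markers, which include them, summed to 205 to 226 TPM in DTL3 and 373 to 705 TPM in ATL, and their part was not tested. Without ATL mouse 4 there were 3 uroplakins higher in ATL. Of 8 tested keratin and vimentin genes, 1 was higher in each segment (median 0.11). Krt80 was at 18.4, 12.8 and 24 TPM in DTL3 and 1.66, 0, 0.7 and 0.78 TPM in ATL (difference 3.48, SE 0.61, adjusted p = 0.00366). Krt7, a keratin of simple epithelia, was at 191, 217 and 185 TPM in DTL3 and 449.6, 627, 245 and 498 TPM in ATL (difference -1.12, SE 0.29, adjusted p = 0.0343). Krt7 lost its call without any 1 DTL3 mouse or ATL mouse 2, 3 or 6 (adjusted p up to 0.158), and 3 genes were higher in ATL without ATL mouse 4 or after either rescaling.

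None of 21 tested immediate early genes, which respond within minutes to handling or stress, was called by limma in either direction (0 and 0, median 1.26), and 6 had an unadjusted p under 0.05, all higher in DTL3. Leaving out 1 mouse gave 1 call in ATL without DTL3 mouse 2 and 1 call in DTL3 without DTL3 mouse 3, ATL mouse 3 or ATL mouse 4. With the spread shared over all 15 groups, 2 were called in DTL3. Fos, Junb and Dusp1 were each highest in DTL3 mouse 2. Fos, a component of the AP-1 factor, was at 10.3, 2666 and 1.22 TPM in DTL3 and 1.54, 73.5, 3.86 and 0 TPM in ATL (difference 2.88, SE 2.01, adjusted p = 0.528). Junb, another, was at 114, 1922 and 49.8 TPM in DTL3 and 57.8, 149.7, 27.3 and 56.8 TPM in ATL (difference 1.86, SE 0.96, adjusted p = 0.343). Dusp1, a phosphatase of the same response, was at 96.3, 1378 and 73.8 TPM in DTL3 and 405, 252, 315 and 395 TPM in ATL (difference -0.64, SE 0.76, adjusted p = 0.761). DTL3 mouse 2 was far above all other mice for Fos and Junb, and without it the median of the list was 0.14. The part of this response in the other values of DTL3 mouse 2 was not tested.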

How the data were processed

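Microdissected mouse kidney tubules were profiled by low-input RNA sequencing, and the deposited table gives TPM computed by the authors. The submitters' processing notes name STAR 2.5.4a and RSEM 1.3.0 with no role; the genome build is not given in the sources used here. Sequencing depth cannot be read from TPM, so it is unknown for these samples and no counting interval can be given. Columns of the 7 mice summed to between 999998.6 and 1000000.8 TPM, and 0 column pairs were identical. Of 54532 genes, 22871 with at least 1 TPM in at least 3 of 7 mice were tested; biotypes came from GENCODE M21 by identifier.

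For the fit, pieces of a mouse were averaged as log2(TPM + 1), with a pseudocount of 1 that understates differences of low genes. Gene levels printed in TPM are plain means over pieces, so those of DTL3 mouse 3 are not exactly the values fitted. limma 3.58.1 in R 4.3.3 (lmFit, then eBayes with a trend) was fitted to the 2 groups, two-sided, with Benjamini-Hochberg adjustment over all 22871 genes. The fit was checked on simulated data, of which no outcome is given here, and no value here rests on that check. Equal mouse numbers mark different mice and were not paired. The number of TPM columns left aside for want of a sample was 0.

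Each of 27 gene lists is described by its counts and median. Named were up to 4 called members per list and direction by level, the 2 most abundant uncalled members, and per direction the 12 largest differences and 5 highest levels among protein-coding genes. Other named genes were chosen after their values were seen: the second tier of Hox, hypoxia, glycolysis and Ly6 genes, the markers of other cell types, Junb, Malat1, Mecom, Vegfa and Col4a2. Members were taken by segment label alone. Earlier results of these data were known when the members, lists and tests were chosen. Tables were handled with pandas 2.3.3 and numpy 2.4.6 in Python 3.11.15, and figures drawn with matplotlib 3.10.9. Some genes the rule would name are not reported here. Alternatives are given in the closing section.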

Additional observations from a re-analysis of the deposited data

Results flagged for a closer look

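Within the 4 ATL mice, the highest or lowest value of a named gene was compared with the value nearest to it. It was set apart when that gap, as a share of the whole range in log2(TPM + 1), exceeded Dixon's critical value for 4 values. This was the case for 9 of 190 groups of values looked at, and chance alone gives about 1 in 20. The groups also included the genes at 1 TPM, the receptor genes and the Malat1 share of each mouse. Osr2, Rnf186, Rnf183, Slc39a8 and Upk3a, below 1 TPM in every ATL mouse, were not among them. ATL mouse 4 was low for Cldn16 (287 TPM), Lypd2 (2546 TPM), Sptssb (2062 TPM) and Prox1 (37.1 TPM), and high for Ptger2 (1.25 TPM) and Cd74 (214 TPM), the invariant chain of antigen-presenting cells. ATL mouse 6 was high for Cldn2 (2.56 TPM). ATL mouse 3 was low for Sgk1 (448 TPM), and ATL mouse 2 was low for Erbb4 (10.5 TPM). In 7 of these 9 genes the call held without any 1 mouse. Cldn2 lost its call without 6 of the 7 mice (adjusted p up to 0.192), and Cd74 was not called.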

How the results depend on the processing

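Of 156 named genes that were called, 107 kept the call under each alternative fitted to them and 0 reversed. Median ratio rescaling ended 16 of the 156 calls, quantile normalization 14 and the use of ATL mice 4 and 6 alone 20. Losses under such settings are not all named beside the values. The count higher in DTL3 (1145) moved to 2162 with the spread shared over all 15 groups, 6273 with ATL mice 2 and 3 alone and 1988 with array weights, the count higher in ATL (449) to 739 with ATL mice 2 and 3 alone, and the count in either direction (1594) to 2814, 7012 and 2580 under the same 3 settings. Leaving out 1 mouse at a time gave 552 (without DTL3 mouse 1) to 1341 (without ATL mouse 4) genes higher in DTL3, 302 to 575 higher in ATL and 854 to 1916 in either direction. Of the 1594 calls, 1254 were kept after median ratio rescaling, 1265 after quantile normalization and 1590 with the shared spread; the cause was not tested. With the mouse number as a replicate block, 1478 genes were higher in DTL3 and 486 in ATL (1964 in either direction). Deviations from the group mean had r = 0.0121 and -0.031 between same-numbered mice and -0.0444 to 0.029 between the others. So few pairs cannot decide whether equal numbers share more than a label. The gene list counts under each setting were chosen after seeing the data, and they too moved with the pair of ATL mice used. With ATL mice 2 and 3 alone, the genes higher in DTL3 went from 5 to 14 hormone and vasoactive receptors, 3 to 10 nuclear receptors, 1 to 9 insulin-like growth factor genes, 3 to 8 potassium channels, 3 to 8 sodium genes, 3 to 7 prostaglandin genes, 7 to 12 other junction proteins and 6 to 10 segment factors. The DTL3 count was 8 for hypoxia genes with either pair, but over all genes it was 6273 with ATL mice 2 and 3 alone and 1414 with ATL mice 4 and 6 alone. The hypoxia median was 0.88 against 0.73 over all genes with the first pair and 1.11 against -0.02 with the second. The DTL3 count of oxidative metabolism went from 2 to 9 with ATL mice 4 and 6 alone. With ATL mice 2 and 3 alone it went to 1, with 1 in ATL. TPM without depth and 3 DTL3 mice limit what can be called among genes near 1 TPM.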
